A study of Homo sapiens with 6 samples.

Results

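The 10 genes followed here are ones that oxygen shortage is known to induce through the transcription factor HIF1, other than those of glycolysis and collagen modification, measured in HCT116 cells that carried a mutant or a wild-type PHF5A. The members were VEGFA, ADM, ANGPTL4, LOX, NDRG1, ANKRD37, MXI1, BHLHE40, PFKFB3 and PFKFB4, taken by gene symbol, and all 10 were among the 60675 gene IDs of the deposited table. HCT116 is an established human colon cancer cell line. The 2 groups were K29Q, cells that stably expressed PHF5A with glutamine in place of lysine 29 (3 libraries, K29Q 1 to 3), and WT, cells that stably expressed PHF5A without this change (3 libraries, WT 1 to 3). PHF5A belongs to SF3B, a spliceosome complex that binds the branch point of introns, and a glutamine is often put in for lysine as a mimic of its acetylated form. By its title, the series concerns acetylation of PHF5A, cell stress and KDM3A, a histone demethylase whose gene is itself a known HIF1 target. No label names a low-oxygen treatment in either group, the promoter that drove PHF5A, whether a line was 1 clone, or whether the cells' own PHF5A was still made. Nor is it said that libraries of 1 group are separate cultures, so p-values measure library-to-library spread alone, and that spread may be technical.

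In cells with enough oxygen, prolyl hydroxylases mark the alpha subunit of HIF for destruction by way of VHL. When oxygen falls, the alpha subunit persists, pairs with ARNT and binds DNA at hypoxia response elements, whose core letters are ACGTG or GCGTG. Its targets include secreted proteins that act on vessels, lipids and matrix, nuclear repressors that turn other genes down, and enzymes that redirect glucose use. In colon tumours these genes are known as markers of poorly perfused regions.

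Of the 9 tested members 7 had all 3 K29Q libraries above all 3 WT libraries, and their differences were small. Expression was measured as FPKM, fragments scaled to transcript length and to the total mapped in the library. Mean FPKM was 1.47 times as high in K29Q as in WT for ANKRD37, 1.37 times for ANGPTL4, 1.35 times for ADM, 1.27 times for PFKFB4, 1.18 times for NDRG1, and 1.09 times for MXI1 and for BHLHE40. VEGFA overlapped between the groups at a ratio of 1.16, PFKFB3 overlapped at 0.953, and LOX lay under 0.2 FPKM in every library and was not tested. Over all tested genes 8.80% had every K29Q library above every WT library, against these 7 of 9. The members share the libraries, so the 7 are not separate observations. No member passed the test over all genes: 0 of 9 had an adjusted p under 0.05 (limma on log2(FPKM + 1) with Benjamini-Hochberg adjustment over 13261 genes), where 0.0528% of all genes did, and 0 did with limma without an intensity trend. At an unadjusted p under 0.05 there were 5 higher in K29Q (ADM, PFKFB4, ANKRD37, NDRG1 and ANGPTL4), against 7.65% of all genes, and 0 lower, against 4.89%. Without K29Q 2 or without K29Q 3 that count was 3, namely ADM, ANKRD37 and PFKFB4. Fold changes were above 0 in 8 of 9 members, against 51.0% of all genes, and their median on the log2 scale was 0.23 over the 9 members and 0.00 over all tested genes.

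**Figure D1:**
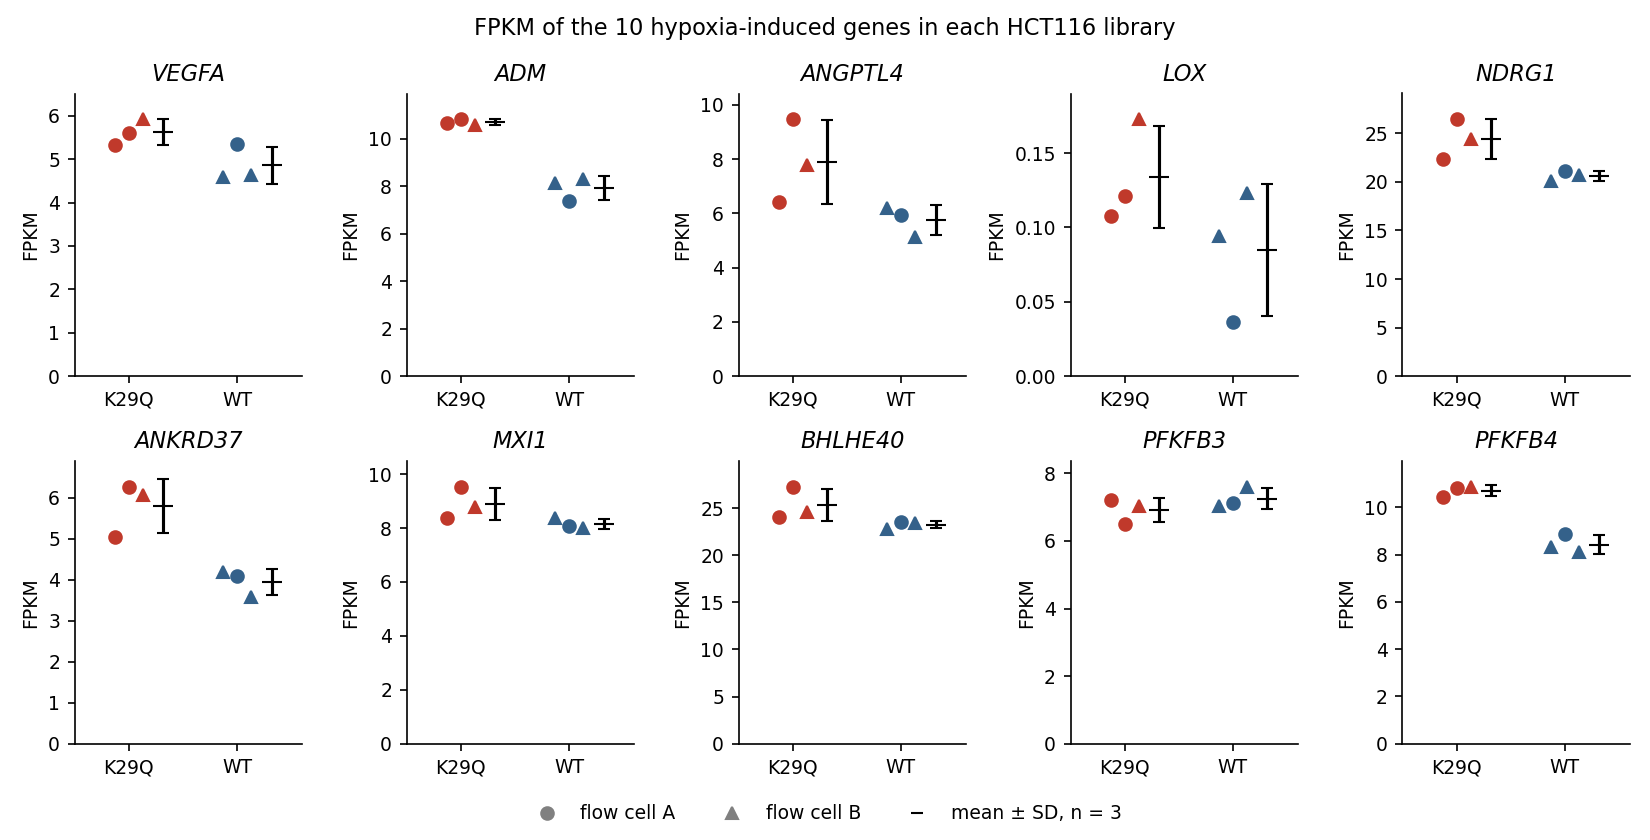
FPKM (vertical axes, each starting at 0) of the 10 members in the 3 K29Q libraries (red, left) and 3 WT libraries (blue, right), with circles for flow cell A, triangles for flow cell B, and the mean ± SD in black (n = 3 each). ADM, PFKFB4 and ANKRD37 stand apart between the groups, MXI1 and BHLHE40 nearly touch, and PFKFB3, VEGFA and LOX overlap.

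Facts of the whole series bear on these values. PHF5A had 41.4, 45.9 and 45.0 FPKM in K29Q 1 to 3, against 32.4, 34.4 and 32.7 FPKM in WT 1 to 3 (limma, adjusted p = 0.110). The groups did not overlap, and with GC and length corrected PHF5A passed (limma, adjusted p = 0.0168), where 0.618% of 13108 genes did. That call was lost when a replicate block was added to the correction, where 0 genes passed as higher in K29Q. A total per gene cannot separate mutant from wild-type transcripts. Depth is not stated, and steps in the low values put it between 33600000 (K29Q 3) and 40000000 fragments (K29Q 2). A run name in the table's headers, read here as the flow cell, put K29Q 1, K29Q 2 and WT 2 on flow cell A and K29Q 3, WT 1 and WT 3 on flow cell B, so each held both groups. Flow cell A held only 1 WT library and flow cell B only 1 K29Q library. A difference within a flow cell thus rests on 1 library in 1 of the groups and has no measure of spread. Fold changes followed base composition, with a median of 0.15 (log2) over the 1873 genes at or under 40% GC and −0.05 over the 2273 genes above 60%. Of 9 colon epithelial markers 6 reached 1 FPKM, while VIL1, KRT20 and LGALS4 stayed below 1 FPKM in every library. The summed FPKM of the 9 ran from 1147 to 1201 in K29Q and from 1248 to 1400 in WT, and its part in the results was not tested. Of the markers of other cell types, COL1A1 was the 1 of 7 fibroblast markers and CD68 the 1 of 7 leukocyte markers above 1 FPKM in any library, 0 of 6 endothelial markers were, and DCN and LUM were at 0 throughout. Summed over each list, fibroblast markers had 4.70 to 6.11 FPKM in K29Q and 4.54 to 5.47 in WT, leukocyte markers 2.66 to 3.11 in K29Q and 2.46 to 3.18 in WT, and endothelial markers 0.376 to 0.433 in K29Q and 0.448 to 0.526 in WT.

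Among the secreted members, ADM stood farthest apart relative to its spread. ADM encodes adrenomedullin, a peptide that widens vessels and promotes their growth, on chromosome 11 from 10304680 to 10307397 (ENSG00000148926, GRCh38, plus strand). ADM had 10.7, 10.8 and 10.6 FPKM in K29Q 1 to 3, against 8.13, 7.37 and 8.30 FPKM in WT 1 to 3. The 3 K29Q libraries lay close together, and all lay well above the highest WT library. The mean was 10.7 ± 0.122 FPKM in K29Q and 7.93 ± 0.497 in WT (SD, n = 3 each). ADM thus differed by 0.39 on the log2 scale (SE 0.065) and did not pass (limma, adjusted p = 0.117). Restricted to flow cell A the difference was 0.49, and restricted to flow cell B it was 0.33. Once the dependence on GC and transcript length had been removed from every library, ADM rose by a log2 fold change of 0.45 (SE 0.057) and was the 1 member that passed (limma, adjusted p = 0.0371), where 0.618% of 13108 genes passed. That call was lost when a flow cell term or a replicate block was added to the correction. Among the corrected values 6 of the 9 members were higher at an unadjusted p under 0.05, against 7.24% of these genes.

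ANGPTL4, a secreted inhibitor of lipoprotein lipase that also affects vessel permeability, varied most among the K29Q libraries. It lies on chromosome 19 from 8363289 to 8374373 (ENSG00000167772, plus strand). ANGPTL4 had 6.41, 9.47 and 7.79 FPKM in K29Q 1 to 3, against 6.19, 5.94 and 5.12 FPKM in WT 1 to 3. K29Q 1 was barely above WT 1, and K29Q 2 was the highest by a wide margin. The mean was 7.89 ± 1.53 FPKM in K29Q and 5.75 ± 0.559 in WT (SD, n = 3 each). ANGPTL4 differed by 0.39 on the log2 scale (SE 0.13, 95% interval 0.07 to 0.70), which did not pass (limma, adjusted p = 0.374). On flow cell A alone the difference was 0.35, and on flow cell B alone 0.41.

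VEGFA, the growth factor that drives new vessels, separated the groups less clearly. The gene lies on chromosome 6 from 43770184 to 43786487 (ENSG00000112715, plus strand). VEGFA had 5.33, 5.61 and 5.92 FPKM in K29Q 1 to 3, against 4.60, 5.35 and 4.64 FPKM in WT 1 to 3. WT 2 lay just above K29Q 1, so the groups overlapped. The mean was 5.62 ± 0.296 FPKM in K29Q and 4.86 ± 0.424 in WT (SD, n = 3 each), and the log2 fold change of 0.18 did not pass (SE 0.076, limma, adjusted p = 0.404). It was 0.03 on flow cell A, which held WT 2, and 0.30 on flow cell B.

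LOX, the lysyl oxidase that crosslinks collagen and elastin, was the lowest of the members. LOX (ENSG00000113083, chromosome 5 from 122063195 to 122078360, minus strand) had 0.108, 0.121 and 0.173 FPKM in K29Q 1 to 3, against 0.0942, 0.0365 and 0.123 FPKM in WT 1 to 3. The groups overlapped, and LOX did not reach the minimum of 1 FPKM in 3 libraries. It shares 138 exon bases with SRFBP1 on the opposite strand, which had 1.96 to 2.81 FPKM over the 6 libraries, and without a stated strand option their reads cannot be told apart there.

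Letters before the RefSeq starts are shown for members of each role, LOX among them for its number of matches although it was not tested. RefSeq windows (GRCh38.p14) were used for 8 of the 10 members and gave 13 windows, since some genes have several starts. VEGFA and NDRG1 were not searched, so the shares of windows given here do not cover these genes. In the 250 bases before each start, ACGTG or GCGTG was sought on both strands, so that the palindrome CACGTG counts as ACGTG once on each strand. At least 1 match was present in 12 of the 13 windows, against 43.2% of 35116 windows of all genes. ACGTG was present in 8 of the 13, against 18.5%. By gene, all 8 members had a match in at least 1 window, and no share by gene over all genes was computed. The windows are not independent, since 2 of the LOX windows overlap and hold the same matches. The members were listed as known HIF1 targets, so matches were likely in advance. Such a match is a description of letters and not a site of binding. Capitals mark the matches, read 5′ to 3′ on the gene's strand. For ANGPTL4 the stretch outside annotated exons is given (chr19:8363905-8364150), and for ADM (chr11:10304959-10304988) and LOX (chr5:122078350-122078379) 30 bases around matches. GENCODE 29 has transcripts of ADM, ANKRD37 and BHLHE40 that start farther upstream, so all 250 bases of these 3 windows lie within annotated exons of the same gene, and 101 of the 250 do in the LOX window shown.
ADM: agagcaggagcgcGCGTGgctgaggaaaga
ANGPTL4: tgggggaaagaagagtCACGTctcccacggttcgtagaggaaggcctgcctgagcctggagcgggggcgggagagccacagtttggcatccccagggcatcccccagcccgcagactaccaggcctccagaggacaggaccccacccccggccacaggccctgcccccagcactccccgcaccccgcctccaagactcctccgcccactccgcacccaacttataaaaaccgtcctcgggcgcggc
LOX: cttgCACGTttccaatcgcattACGTGaac
ADM held 1 GCGTG, 101 bases before the RefSeq start, and ANGPTL4 held 1 ACGTG on the other strand, 234 bases before it. The most upstream of the 3 LOX windows held 4 matches, of which 2 are shown.

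Among the intracellular regulators ANKRD37 had the largest fold change. It is a small ankyrin repeat protein and a known HIF1 target, on chromosome 4 from 185396021 to 185400628 (ENSG00000186352, plus strand). ANKRD37 had 5.05, 6.27 and 6.06 FPKM in K29Q 1 to 3, against 4.19, 4.08 and 3.59 FPKM in WT 1 to 3. The groups did not overlap, and K29Q 1 came nearest to WT. The mean was 5.79 ± 0.657 FPKM in K29Q and 3.95 ± 0.320 in WT (SD, n = 3 each). Its log2 fold change of 0.45 (SE 0.093) did not pass (limma, adjusted p = 0.195). The difference was 0.38 on flow cell A and 0.53 on flow cell B, and with GC and length corrected it was 0.40 (limma, adjusted p = 0.0563). The gene shares 909 exon bases with UFSP2 on the opposite strand, and UFSP2 had 4.50, 4.65 and 4.08 FPKM in K29Q 1 to 3, against 4.91, 4.55 and 4.05 FPKM in WT 1 to 3. The UFSP2 values overlapped between the groups. Without a stated strand option, reads of ANKRD37 and UFSP2 cannot be told apart over the shared bases.

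NDRG1, a cytoplasmic protein linked to differentiation and to the suppression of metastasis, was among the most abundant members. It lies on chromosome 8 from 133237171 to 133302022 (ENSG00000104419, minus strand). NDRG1 had 22.3, 26.5 and 24.4 FPKM in K29Q 1 to 3, against 20.1, 21.1 and 20.7 FPKM in WT 1 to 3. The groups did not overlap, and the K29Q libraries were more spread out. The mean was 24.4 ± 2.07 FPKM in K29Q and 20.6 ± 0.528 in WT (SD, n = 3 each), and the log2 fold change of 0.23 did not pass (SE 0.075, limma, adjusted p = 0.365). It was 0.19 on flow cell A and 0.25 on flow cell B.

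The remaining regulators, MXI1 and BHLHE40, are transcriptional repressors that bind the E-box letters CACGTG, and their differences were the smallest among the members that did not overlap. MXI1 (ENSG00000119950, chromosome 10 from 110207605 to 110287365, plus strand) pairs with MAX and opposes MYC. MXI1 had 8.39, 9.53 and 8.78 FPKM in K29Q 1 to 3, against 8.38, 8.06 and 8.02 FPKM in WT 1 to 3. K29Q 1 and WT 1 were all but equal. BHLHE40 (ENSG00000134107, chromosome 3 from 4979116 to 4985323, plus strand) represses clock genes and mediates responses to low oxygen. BHLHE40 had 24.1, 27.3 and 24.6 FPKM in K29Q 1 to 3, against 22.8, 23.5 and 23.4 FPKM in WT 1 to 3. Here too K29Q 2 was the highest and the other K29Q libraries lay close to WT. The means were 8.90 ± 0.583 FPKM in K29Q and 8.15 ± 0.198 in WT for MXI1, and 25.3 ± 1.70 in K29Q and 23.3 ± 0.373 in WT for BHLHE40 (SD, n = 3 each). The log2 fold changes were 0.11 (SE 0.067) for MXI1 and 0.12 (SE 0.066) for BHLHE40, and neither passed (limma, adjusted p = 0.516 and 0.498). Without K29Q 2 the log2 fold change was 0.07 for MXI1 and 0.06 for BHLHE40. On flow cell A the differences were 0.13 for MXI1 and 0.12 for BHLHE40, and on flow cell B both were 0.09.

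The windows of ANKRD37 and BHLHE40 were the members' richest in ACGTG beside the most upstream LOX window, which is why both are shown, as 30 bases at chr4:185396673-185396702 and chr3:4979263-4979292.
ANKRD37: gggctcCACGTGccagtgtttgtgtACGTG
BHLHE40: ACGTGcctggagtcacagggtagaaCACGT
ANKRD37 held a CACGTG followed by a further ACGTG, which begin 162 and 143 bases before the RefSeq start. BHLHE40 held a CACGTG 245 bases before its RefSeq start, outside the stretch shown, and the 2 matches shown, 174 and 149 bases before it. Both stretches lie in annotated exons of their own gene. CACGTG was present in 3 of the 13 windows (1 each of ANKRD37, BHLHE40 and PFKFB3), against 6.34% of all windows. Of the 3 MXI1 windows 2 held ACGTG or GCGTG.

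The last pair, PFKFB4 and PFKFB3, are paralogs that make and break down fructose 2,6-bisphosphate, the activator of phosphofructokinase, and their fold changes had opposite signs. PFKFB4 (ENSG00000114268) lies on chromosome 3 from 48517684 to 48562015 (minus strand). PFKFB4 had 10.4, 10.8 and 10.9 FPKM in K29Q 1 to 3, against 8.31, 8.86 and 8.10 FPKM in WT 1 to 3. The groups were well apart and the K29Q libraries close together. It shares 289 exon bases with UCN2 on the same strand, which had at most 1.08 FPKM. PFKFB3 (ENSG00000170525), whose kinase activity far exceeds its phosphatase activity, lies on chromosome 10 from 6144934 to 6254644 (plus strand). PFKFB3 had 7.20, 6.51 and 7.02 FPKM in K29Q 1 to 3, against 7.04, 7.11 and 7.61 FPKM in WT 1 to 3. The groups overlapped, with K29Q 2 the lowest and WT 3 the highest. The means of PFKFB4 were 10.7 ± 0.244 FPKM in K29Q and 8.43 ± 0.393 in WT, and those of PFKFB3 6.91 ± 0.357 in K29Q and 7.25 ± 0.306 in WT (SD, n = 3 each). The log2 fold change was 0.31 (SE 0.061, limma, adjusted p = 0.175) for PFKFB4 and −0.06 (SE 0.066, 95% confidence interval −0.22 to 0.09, limma, adjusted p = 0.706) for PFKFB3. PFKFB4 differed by 0.24 on flow cell A and 0.37 on flow cell B, and PFKFB3 by −0.05 on each.

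The balance between the paralogs was compared directly, a test chosen after the values were seen. The ratio of PFKFB4 to PFKFB3 FPKM was 1.45, 1.66 and 1.55 in K29Q 1 to 3, against 1.18, 1.25 and 1.07 in WT 1 to 3. Every K29Q library lay above every WT library. On the log2 scale the mean ratio was 0.63 ± 0.099 in K29Q and 0.22 ± 0.11 in WT (SD, n = 3 each), a difference of 0.42. An exact permutation test (two-sided) gave p = 0.1, and 3 against 3 libraries cannot give a smaller one. The sum of both genes was 17.6 ± 0.283 FPKM in K29Q and 15.7 ± 0.310 in WT.

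**Figure D2:**
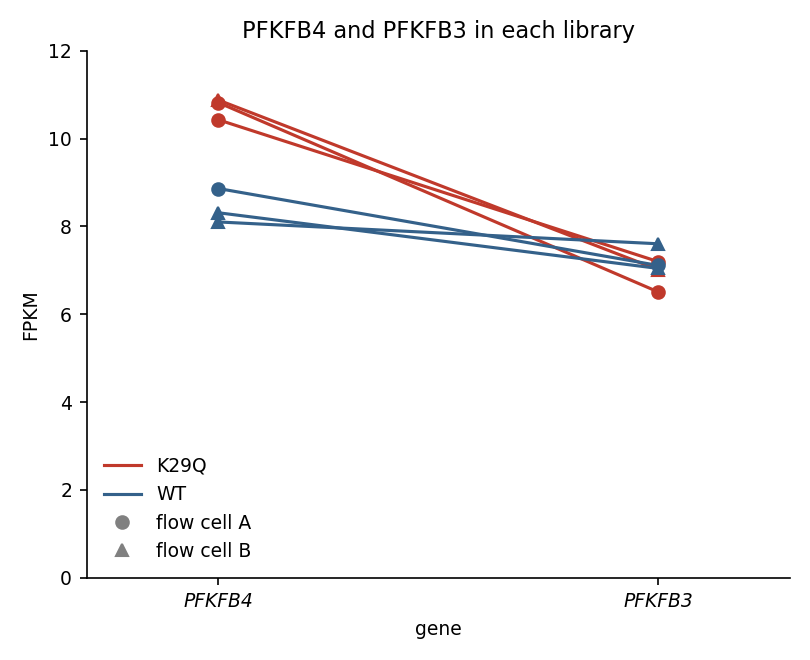
FPKM (vertical axis) of PFKFB4 (left) and PFKFB3 (right), with 1 line per library, red for K29Q and blue for WT, and circles for flow cell A and triangles for flow cell B. The 3 K29Q lines start at 10.4 to 10.9 FPKM, above the WT lines at 8.10 to 8.86, and the lines mix at PFKFB3.

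The paralogs' windows are shown because the paralogs' fold changes had opposite signs: PFKFB4 at chr3:48556891-48557053 and the second PFKFB3 start at chr10:6202694-6202865, both outside annotated exons.
PFKFB4: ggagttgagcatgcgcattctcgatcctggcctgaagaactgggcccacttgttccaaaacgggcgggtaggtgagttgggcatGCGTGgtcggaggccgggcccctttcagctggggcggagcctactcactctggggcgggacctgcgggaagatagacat
PFKFB3: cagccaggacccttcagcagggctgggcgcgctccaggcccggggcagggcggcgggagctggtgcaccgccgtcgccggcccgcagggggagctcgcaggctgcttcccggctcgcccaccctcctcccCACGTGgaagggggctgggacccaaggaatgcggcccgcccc
PFKFB4 held 1 GCGTG, 166 bases before its start, and this PFKFB3 window held 1 CACGTG, 108 bases before its start. The first PFKFB3 window held 1 GCGTG on the other strand, 168 bases before that start.

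**Figure D3:**
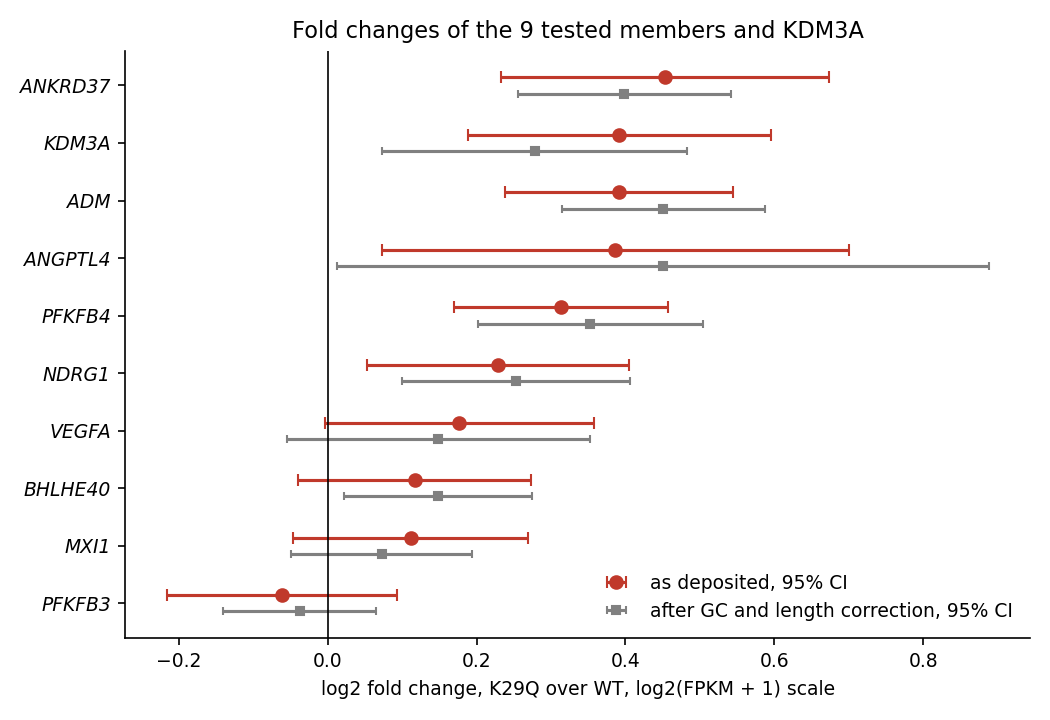
Log2 fold change of K29Q over WT (horizontal axis, log2(FPKM + 1) scale) for the 9 tested members and KDM3A (rows), as deposited (red circles) and after GC and length correction (grey squares), with 95% confidence intervals from limma, 3 libraries per group. ANKRD37 at 0.45 is the highest and PFKFB3 at −0.06 the lowest, and the correction moved ADM to 0.45 and KDM3A to 0.28.

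In level, BHLHE40 and NDRG1 led in both groups. In K29Q the order by mean FPKM was BHLHE40, NDRG1, PFKFB4, ADM, MXI1, ANGPTL4, PFKFB3, ANKRD37, VEGFA and LOX. The library ranges of neighbours overlapped between BHLHE40 and NDRG1, PFKFB4 and ADM, MXI1 and ANGPTL4, ANGPTL4 and PFKFB3, and ANKRD37 and VEGFA. In WT the order was BHLHE40, NDRG1, PFKFB4, MXI1, ADM, PFKFB3, ANGPTL4, VEGFA, ANKRD37 and LOX, and neighbours overlapped from PFKFB4 through PFKFB3 and between ANGPTL4 and VEGFA. ADM was thus set apart from MXI1 in K29Q and not in WT.

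The K29Q libraries were not alike over the members. K29Q 2 was the highest of all 6 libraries in 6 of the 9 tested members, and K29Q 1 was the lowest K29Q library in 7 of 9. The median log2 difference from the WT mean over the 9 members was 0.11 in K29Q 1, 0.33 in K29Q 2 and 0.24 in K29Q 3, against −0.02, 0.03 and −0.02 in WT 1 to 3. PFKFB3 ran the other way, with K29Q 2 the lowest and K29Q 1 the highest K29Q library. ADM and PFKFB4 had nearly equal values in the 3 K29Q libraries (coefficients of variation of 1.14% for ADM and 2.28% for PFKFB4). ANGPTL4 had the widest spread of the 9 in K29Q, at 19.4%, against 9.72% in WT.

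**Figure D4:**
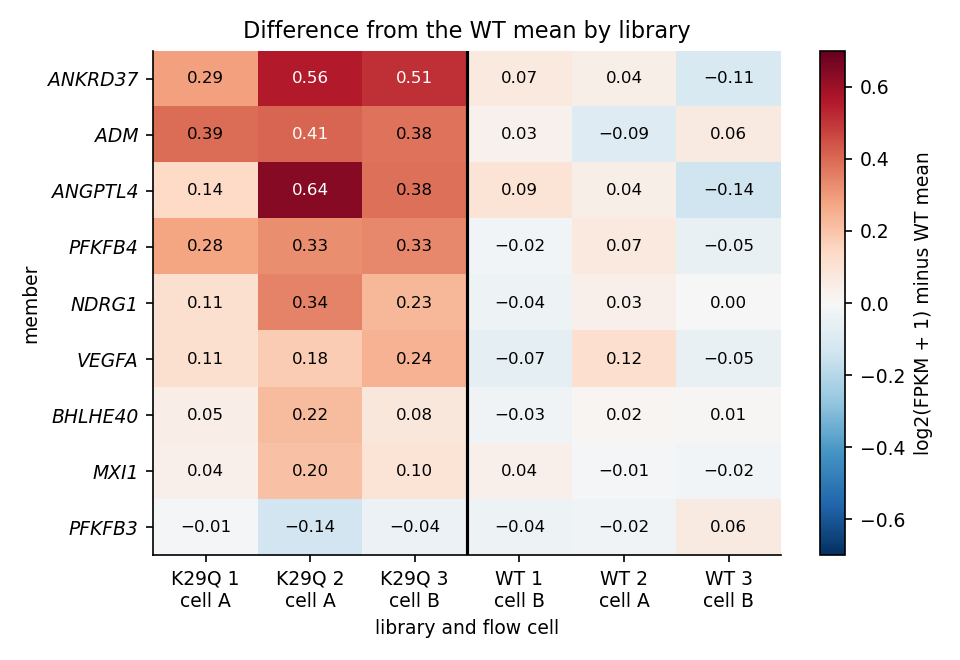
Difference from the WT mean in log2(FPKM + 1) (colour and printed value) for the 9 tested members (rows) in each library (columns, K29Q left and WT right, with the flow cell under each name). K29Q 2 reaches 0.64 for ANGPTL4 and 0.56 for ANKRD37, while ADM lies between 0.38 and 0.41 in all 3 K29Q libraries.

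Of the genes that work with the members, 0 passed over all genes in any of the lists (limma). For the counts at an unadjusted p under 0.05 in these lists, the shares over all tested genes were 7.65% higher, 4.89% lower and 12.5% in either direction. The oxygen-sensing machinery had 12 of 13 genes tested, with 1 at an unadjusted p under 0.05. That 1 was EGLN1, the main HIF prolyl hydroxylase and a HIF1 target, with 11.5, 11.4 and 12.1 FPKM in K29Q 1 to 3, against 9.76, 9.38 and 9.73 FPKM in WT 1 to 3 (log2 fold change 0.25, SE 0.058, limma, adjusted p = 0.257). HIF1A, the oxygen-regulated alpha subunit, chosen after its values were seen, had 23.0, 20.0 and 21.7 FPKM in K29Q 1 to 3, against 22.4, 18.0 and 13.5 FPKM in WT 1 to 3, and the groups overlapped. EPAS1, the alternative alpha subunit, had 3.64, 3.50 and 4.35 FPKM in K29Q 1 to 3, against 4.03, 4.28 and 7.50 FPKM in WT 1 to 3, and WT 3 stood above the rest.

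VEGF receptors and the adrenomedullin receptor CALCRL were low. Of the VEGF ligands and receptors 2 of 9 were tested, and the receptors FLT1, KDR and FLT4 stayed under 0.1 FPKM in every library. PGF, a VEGF relative that binds FLT1, had 1.63, 1.46 and 1.42 FPKM in K29Q 1 to 3, against 1.78, 1.87 and 2.18 FPKM in WT 1 to 3. It lay lower in every K29Q library than in every WT library and did not pass (log2 fold change −0.23, SE 0.080, limma, adjusted p = 0.375). VEGFB, a further ligand, overlapped at 11.1 ± 1.33 FPKM in K29Q and 10.8 ± 0.631 in WT (SD, n = 3 each). CALCRL, which forms the adrenomedullin receptor with RAMP2 or RAMP3, had 0.207 to 0.272 FPKM in K29Q and 0.0973 to 0.186 in WT, and RAMP3 was listed at 0 throughout. RAMP1, the partner of CALCRL in the CGRP receptor, had 23.0, 21.3 and 22.4 FPKM in K29Q 1 to 3, against 18.0, 19.5 and 20.0 FPKM in WT 1 to 3 (log2 fold change 0.20, SE 0.066, limma, adjusted p = 0.365). Of the 7 adrenomedullin peptides and receptors 3 were tested. RAMP1 and the peptide gene ADM5 were higher at an unadjusted p under 0.05, as were 7.65% of all genes. ADM5 had 2.76, 2.73 and 3.05 FPKM in K29Q 1 to 3, against 2.23, 2.12 and 2.66 FPKM in WT 1 to 3. The peptide gene ADM2 lay the other way without overlap, at 4.44 ± 0.413 FPKM in K29Q and 5.16 ± 0.360 in WT (SD, n = 3 each, log2 fold change −0.18, SE 0.082, limma, adjusted p = 0.421). Of the angiopoietin-like genes and the lipase pathway 1 of 10 was tested, LMF1, which overlapped, and LPL did not exceed 0.01 FPKM.

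The relatives of the intracellular members gave values in both directions. Of the MYC, MAX and MXD network 10 of 12 were tested, with 1 higher and 2 lower at an unadjusted p under 0.05. MYC, the activator that MXI1 opposes, had 1.86, 1.62 and 1.76 FPKM in K29Q 1 to 3, against 0.952, 1.35 and 1.47 FPKM in WT 1 to 3. MXD3, a MAX-binding repressor like MXI1, had 8.15, 7.72 and 7.44 FPKM in K29Q 1 to 3, against 9.06, 8.40 and 9.79 FPKM in WT 1 to 3. The other NDRG genes all overlapped between the groups (3 of 3 tested, 0 at an unadjusted p under 0.05). NDRG3 had 12.7, 13.8 and 7.48 FPKM in K29Q 1 to 3, against 7.68, 8.58 and 12.5 FPKM in WT 1 to 3, and NDRG4 ran from 1.18 to 2.71 FPKM in K29Q and from 1.15 to 2.40 in WT. Both varied more within the groups than between them. BHLHE41, the closest relative of BHLHE40, had 0.828 to 0.966 FPKM in K29Q and 0.918 to 0.997 in WT and was not tested. Of the 9 genes in the list of BHLHE41 and clock repressors 7 were tested, with 0 at an unadjusted p under 0.05. NR1D1, a heme-binding repressor of the clock, had 14.1, 13.3 and 14.1 FPKM in K29Q 1 to 3, against 14.5, 17.0 and 14.9 FPKM in WT 1 to 3, while its relative NR1D2 overlapped at 7.30 to 8.49 FPKM in K29Q and 6.09 to 8.09 in WT. Of the lysyl oxidase family 5 of 6 genes were tested, with 1 higher and 1 lower at an unadjusted p under 0.05. LOXL2, its most abundant member here, had 21.9, 21.1 and 21.0 FPKM in K29Q 1 to 3, against 16.0, 16.2 and 18.7 FPKM in WT 1 to 3 (log2 fold change 0.32, SE 0.074, limma, adjusted p = 0.266, and 0.0310 after GC and length correction). With a replicate block added to that correction LOXL2 did not pass. LOXL4 had 4.36, 3.99 and 3.91 FPKM in K29Q 1 to 3, against 4.91, 4.54 and 5.31 FPKM in WT 1 to 3, so these oxidases lay in opposite directions. Of the other genes that set fructose 2,6-bisphosphate or use it, 5 of 8 were tested, with 0 at an unadjusted p under 0.05. PFKM, the muscle-type phosphofructokinase, overlapped at 11.1 to 13.6 FPKM in K29Q and 10.4 to 11.4 in WT. TIGAR, a fructose bisphosphatase, had 7.37, 3.37 and 8.01 FPKM in K29Q 1 to 3, against 7.54, 7.74 and 6.82 FPKM in WT 1 to 3, with K29Q 2 far below the rest.

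Of the 57 other HIF1 targets 55 were tested, and 44 lay above 0, against 51.0% of all genes, and 11 below. None passed over all genes (0 of 55, limma). At an unadjusted p under 0.05 there were 14 higher and 1 lower in K29Q, against 7.65% and 4.89% of all genes. Without overlap 18 were higher, against 8.80% of all genes. Their median log2 fold change was 0.12, beside 0.23 over the 9 members, and the difference between these medians was not tested. CA9, a cell-surface carbonic anhydrase, had 6.52, 5.71 and 5.46 FPKM in K29Q 1 to 3, against 3.13, 2.90 and 3.70 FPKM in WT 1 to 3 (log2 fold change 0.70, SE 0.096, limma, adjusted p = 0.0837). FAM162A, a mitochondrial HIF1 target, had 15.2, 16.7 and 15.7 FPKM in K29Q 1 to 3, against 11.6, 11.4 and 10.9 FPKM in WT 1 to 3 (log2 fold change 0.46, SE 0.063, limma, adjusted p = 0.0837). Of the 55, 4 passed after GC and length correction, against 0.618% of 13108 genes. They were CA9, ALDOC, P4HA1 and PLOD2, all higher in K29Q (limma, adjusted p from 0.0141 to 0.0407). With a flow cell term or a replicate block added to the correction, 0 of the 55 passed. ALDOC, P4HA1 and PLOD2 were chosen after their values were seen. KDM3A, the demethylase of the series title, had 5.32, 6.59 and 5.55 FPKM in K29Q 1 to 3, against 4.32, 4.28 and 3.96 FPKM in WT 1 to 3, and was highest in K29Q 2 like most members.

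**Figure D5:**
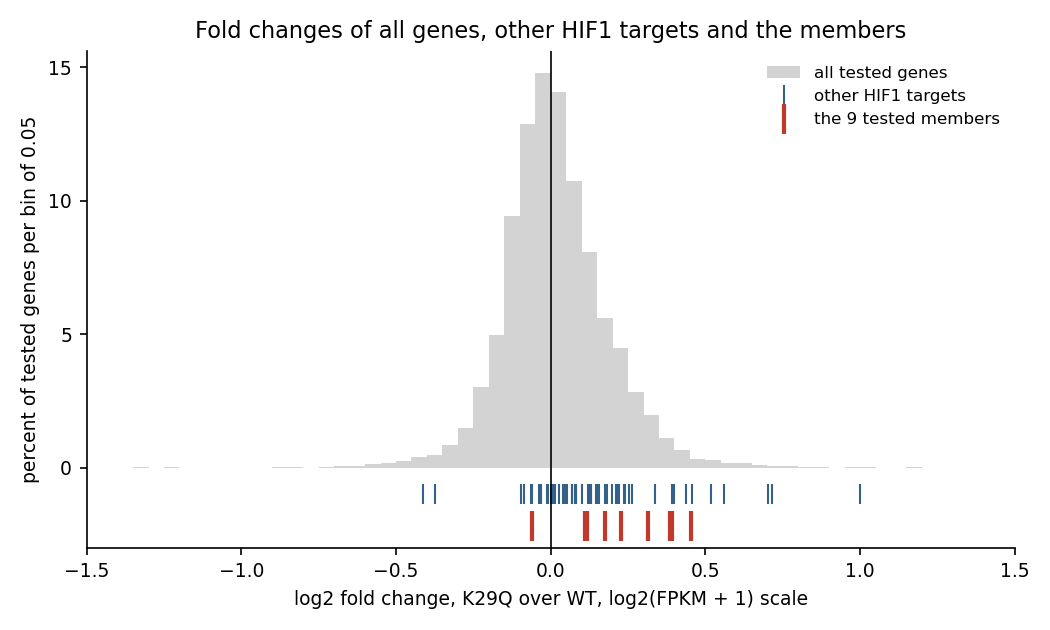
Share of the 13261 tested genes (grey bars, percent per bin of 0.05) by log2 fold change of K29Q over WT (horizontal axis, log2(FPKM + 1) scale), with ticks below 0 for the 55 other HIF1 targets (blue) and the 9 tested members (red). All members but PFKFB3 lie right of 0, up to 0.45, and 4 genes beyond ±1.5 are not drawn.

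Among 6699 genes outside the lists with a mean FPKM of at least 5, the 5 highest Pearson correlations with the members' mean profile ran from 0.979 to 0.995 over 6 libraries. Each takes in the difference between the groups as well as that within them, and the libraries are shared, so they are given as a description. FDFT1, squalene synthase, had 24.0, 27.5 and 26.2 FPKM in K29Q 1 to 3, against 20.0, 20.9 and 19.4 FPKM in WT 1 to 3. SCD, the stearoyl-CoA desaturase, had 242, 281 and 272 FPKM in K29Q 1 to 3, against 185, 195 and 171 FPKM in WT 1 to 3. FGFBP1, a secreted carrier of fibroblast growth factors, had 6.89, 8.71 and 8.07 FPKM in K29Q 1 to 3, against 4.76, 5.55 and 5.19 FPKM in WT 1 to 3. The others were HTR7, a serotonin receptor, and PIP4K2B, a lipid kinase, whose means in K29Q were 1.17 and 1.07 times those in WT. K29Q 2 was the highest library in all 5, which largely follows from their choice by likeness to a profile that is highest in K29Q 2.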

How the data were processed

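Total RNA libraries of HCT116 cells were sequenced, 3 with PHF5A K29Q and 3 with wild-type PHF5A. The deposited table gives FPKM for each gene in each library, per the file headers. Its makers used HISAT2 2.1.0 with GRCh38, and StringTie, per the submitters' processing notes. Which annotation, settings and strand option they used is not given in the sources used here. Rows hold 60675 gene IDs, and 0 columns belong to samples outside the series. FPKM are not counts: StringTie divides fragments among overlapping transcripts, so no count test was run and the depths given are estimates from the steps of single-exon genes. No 2 libraries were duplicates.

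A gene was tested if 3 or more libraries had 1 FPKM or more (13261 genes). The fit was limma 3.58.1 (R 4.3.3) on log2(FPKM + 1) over both groups, with an intensity trend and the group as the only term. The test is two-sided with Benjamini-Hochberg adjustment over all 13261 genes and a threshold of 0.05. Fold changes are K29Q over WT on that scale, which understates low genes. The fit was tested on simulated data. GC content and length came from the longest GENCODE 29 transcript (13108 tested genes), and the correction subtracted a spline trend with 5 degrees of freedom on each from every library. The members, the gene lists and the tests were chosen with earlier results of these data known. The text names all members, KDM3A and PHF5A, up to 2 genes with the smallest p of each list, and the 5 genes most like the members' mean profile, and any gene beyond these (among them the receptors, LPL, ADM2 and BHLHE41) was picked with its values in view. The values of 1 further gene are not reported here. Alternatives were other pseudocounts, filters and scalings, added terms, GC and length correction and leaving out each library.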

Additional observations from a re-analysis of the deposited data

How the results depend on the processing

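No member changed sign under any of the alternatives run. ADM passed under 1 of 17 alternatives, GC and length correction, and its adjusted p ran from 0.0371 to 0.396. With that correction 81 of all genes, 1 member and 4 other HIF1 targets passed. Adding a replicate block to it left 1 gene and adding a flow cell term left 5, with 0 members and 0 other HIF1 targets in each. The number of all genes past the threshold was 13 with quantile normalization (9 higher and 4 lower, against 4 and 3), 2 with no filter on low values, 4 with a flow cell term and 3 with the replicate block. Leaving out 1 library gave between 5 and 20 such genes, with 20 without WT 1 and 12 without K29Q 1, and between 3 and 6 members at an unadjusted p under 0.05. The median log2 fold change of the other HIF1 targets was 0.081 at a mean FPKM of at least 5 and 0.090 with median scaling, against 0.12. PFKFB3 moved between −0.09 and −0.02. LOX has a value only with no filter (log2 fold change 0.06, SE 0.040, limma, adjusted p = 0.773), and ANKRD37 has none at a mean FPKM of at least 5. Same-numbered libraries deviated from their group means with correlations across genes of −0.14, 0.179 and −0.165. The highest correlation over all pairs was 0.247, for K29Q 1 with WT 3. Deviations from means of 3 libraries cannot decide whether the numbers are a pairing. The replicate block left 5 members at an unadjusted p under 0.05. The causes of these shifts were not tested. FPKM without counts give no interval for single libraries, and 3 libraries per group limit the precision.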
